A study of Homo sapiens with 18 samples.

Results

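A set of 47 genes was chosen from the 19784 rows of the deposited tables because their reads were scarce in parental cells and in cells with an altered PHF8 and more frequent in cells carrying PHF8. A row was selected on its mean CPM, reads per 1000000 library reads, which had to be under 1.5 in the parental line (wt) and under 1.5 in the F279S line. It also had to be at least 2 in the PHF8 line and at least 3 times the larger of the other means. Of the 6759 rows under 1.5 CPM in both wt and F279S, 139 reached 2 CPM in the PHF8 line. A further 8 rows that met the thresholds, PGR, GFRA2, ADAM28, MEOX2, NCKAP1, NPY, KIT and PCDH11X, were left out by name. The set was defined by the contrast of PHF8 with F279S and wt, so all values of that contrast below are a description and carry no test.

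PHF8 is a histone demethylase. Its PHD finger binds the methylated histone tail found at active promoters, and its catalytic Jumonji domain removes repressive methyl groups from nearby histone residues, among them H3K9 and H4K20. Genes that are silent in a cell type often carry such repressive marks, and loss of the catalytic function of PHF8 in humans is known for a neurodevelopmental disorder.

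All libraries were poly(A)-selected RNA from THP-1, an established human monocytic leukaemia line with the MLL-AF9 fusion, grown in DMEM with serum. The first experiment held 4 libraries each of THP-1 with the genotype label PHF8, of THP-1 with F279S, a substitution in the catalytic domain, and of unmodified wt cells. The other experiment held 2 libraries each of THP1+ERDD, THP1+ERPHF8 and THP1+ERAA, all collected at day 3. ERDD (genotype PHF8DD) and ERAA (PHF8AA) carry the treatment label 4-OHT, an oestrogen receptor ligand used at 100 nM for induction, and ERPHF8 carries no treatment label. A difference between ERPHF8 and either of the other ER lines therefore cannot be told apart from one of treatment. What AA, DD and ER stand for is not stated, and no wt or uninduced library accompanied the ER lines. Nothing says that the libraries of a line came from separate cultures or clones, so p-values measure the spread between these libraries only.

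Library totals ranged from 18239474 to 51517469 reads in the first experiment and from 40637157 to 41257753 in the ER lines. PHF8 itself averaged 2020 ± 89.6 CPM in the PHF8 line, 5381 ± 320.2 CPM in F279S and 50.6 ± 3.99 CPM in wt (SD, n = 4 each), so its RNA was more abundant with F279S than with PHF8. Among the ER lines ERDD averaged 1109 CPM of PHF8, ERPHF8 1906 CPM and ERAA 2150 CPM (n = 2 each). All 12 monocytic markers examined averaged 1 CPM or more in every line, but their sum differed between lines. It was 3297 to 3630 CPM in PHF8 libraries, 3387 to 4081 CPM in F279S libraries and 4467 to 5305 CPM in wt libraries, so it was lower than in wt both in PHF8 and in F279S, whose ranges overlapped. Summed over COL1A1, COL1A2, COL3A1 and DCN, the fibroblast markers reached 31.5 CPM in PHF8 library 1 and 35.0 CPM in F279S library 2. In the other 10 libraries of the first experiment that sum was 0.927 to 2.06 CPM. The summed level of the 47 genes was not raised in those libraries. It was 163 CPM in PHF8 library 1, within the range of the other PHF8 libraries. In F279S library 2 it was 29.8 CPM, the lowest of the F279S libraries. A sum does not show what single genes did. MAGED1 had 4.41 CPM in PHF8 library 1 and 1.10 CPM in F279S library 2, the highest value of each line. Without both libraries the selection gave 45 genes, 42 of them among the 47. T cell markers (CD3D, CD3E, CD3G and CD2) summed to at most 0.461 CPM in any library. The part of monocytic markers in the levels of the 47 genes was not tested.

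Counts behind these genes were small. A gene of the set had 23 to 363 reads in a PHF8 library (median 103), 1 to 108 in an F279S library (median 24) and 0 to 91 in a wt library (median 16.5). Deposited values were scaled by the whole span of a gene, introns included. Whether reads in introns were counted, and on which strand, is not stated, so reads of an overlapping gene could not be separated here. This touches 4 of the 47, among them TPD52L1, RUNDC3B and DOK6. The other 43 overlapped no other row. All 47 are protein-coding genes of GENCODE release 29.

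Summed over the 47 genes, the PHF8 libraries held 163, 156, 169 and 162 CPM, the F279S libraries 33.4, 29.8, 42.6 and 39.7 CPM and the wt libraries 30.7, 29.3, 42.5 and 39.8 CPM. The lowest PHF8 library thus stood well above every F279S and wt library, which overlapped each other. For each of the 47 genes the lowest PHF8 library was above the highest of the 8 F279S and wt libraries. That pattern held for 4.87% of all 6759 rows under 1.5 CPM in F279S and wt, and nothing is read from it because the selection used it. The ratio of the PHF8 mean to the larger other mean ran from 3.02 to 9.98 (median 4.15), and 13 genes reached 5. The mean in the PHF8 line ran from 2.03 to 7.97 CPM (median 3.05), so these genes stayed weakly read there too. In bulk RNA a gene read in few cells and one read weakly in all cells cannot be told apart.

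**Figure D1:**
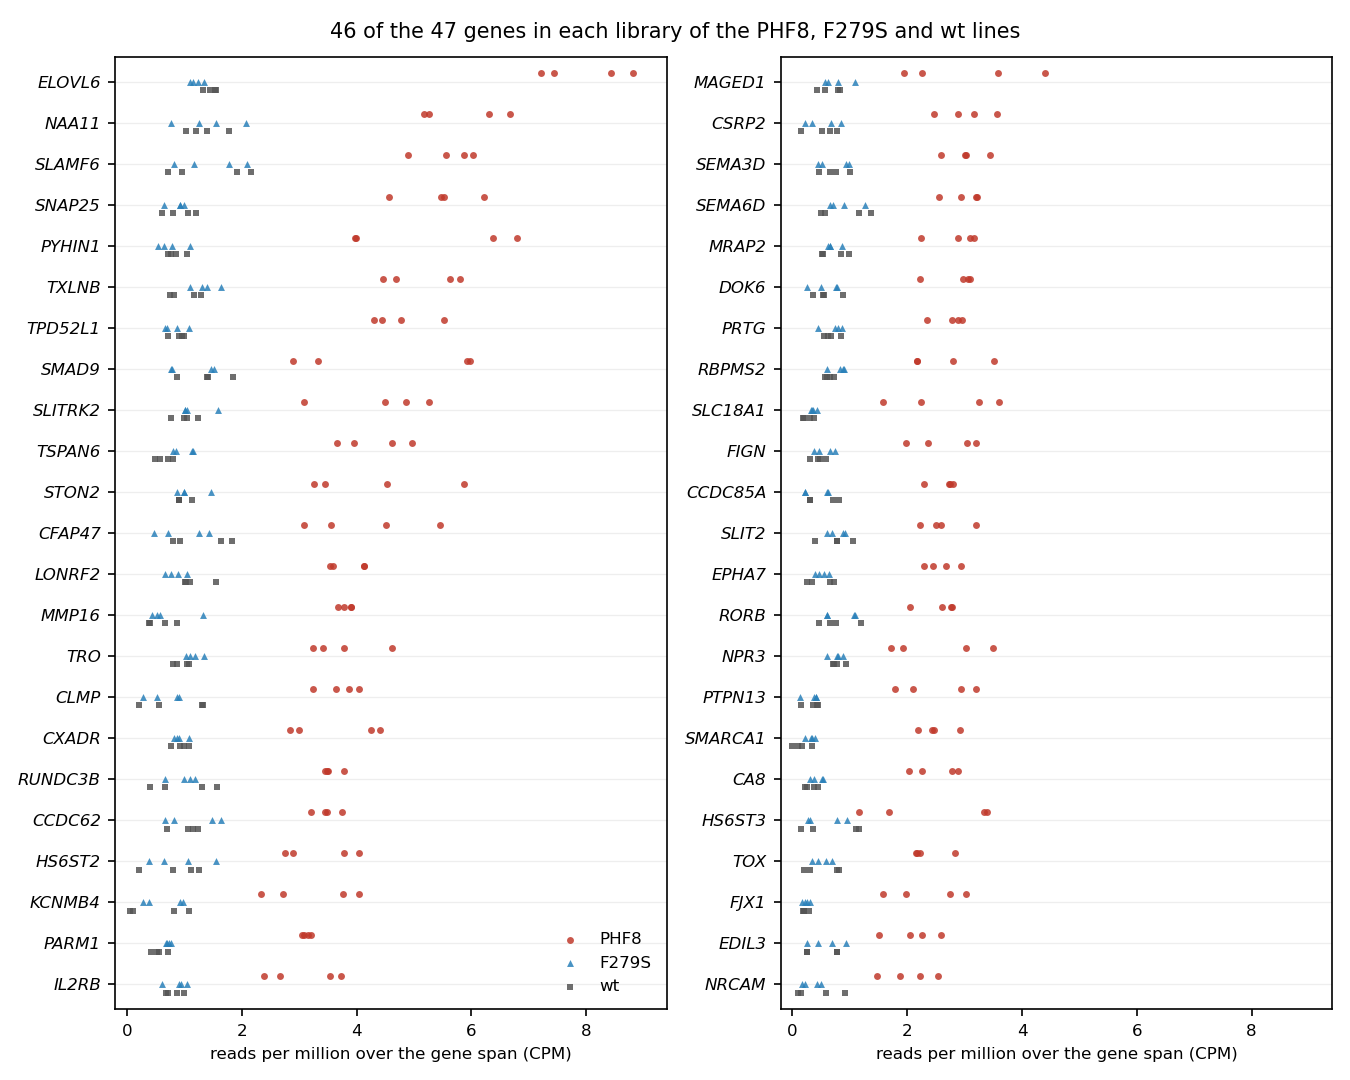
CPM of 46 of the 47 genes (rows, ordered by the PHF8 mean) in every library of PHF8 (red circles), F279S (blue triangles) and wt (grey squares), n = 4 each. In each row the PHF8 points lie to the right of all F279S and wt points, which overlap; ELOVL6 has the highest PHF8 mean, 7.97 CPM.

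The selection capped the F279S and wt means together, which limits how far apart they can lie, and within that limit the ratio of the F279S to the wt mean had a median of 1.02 over the 47 genes and ran from 0.713 to 2.13. It was above 1 for 27 genes (57.4%) and below 1 for 20. Among the 2398 other rows under 1.5 CPM in both lines whose wt mean was at least that of the lowest gene of the set, the median was 0.907 and 36% were above 1. That floor was set on the wt mean alone, the denominator of the ratio, so these values are not a matched background. The highest value belonged to SMARCA1, which had 0.346, 0.329, 0.219 and 0.388 CPM in F279S libraries and 0.10, 0, 0.166 and 0.337 CPM in wt libraries, counts near the floor of detection.

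A gene of lipid metabolism had the most reads over its whole span, without regard to length. ELOVL6 (chr4:110045846-110199199, minus strand, hg38), an enzyme that elongates long-chain fatty acids, had 8.82, 8.43, 7.21 and 7.44 CPM in PHF8 libraries, 1.34, 1.15, 1.23 and 1.11 CPM in F279S libraries and 1.55, 1.44, 1.33 and 1.54 CPM in wt libraries. Every PHF8 library was above 7 CPM and every other library below 1.6 CPM. CA8 (chr8:60187347-60281412, minus strand), a carbonic anhydrase relative without the enzyme activity, averaged 2.49 ± 0.413 CPM in PHF8, 0.437 ± 0.113 CPM in F279S and 0.327 ± 0.11 CPM in wt (SD, n = 4 each, as for all means ± SD of these lines below).

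Several genes act in neurons, at synapses or in the guidance of axons. SNAP25 (chr20:10218830-10307418, plus strand), a SNARE of synaptic vesicle fusion, had 5.52, 4.56, 6.22 and 5.47 CPM in PHF8 libraries, 0.649, 0.932, 0.995 and 0.932 CPM in F279S libraries and 0.801, 0.618, 1.21 and 1.06 CPM in wt libraries. SLC18A1 (chr8:20144855-20183206, minus strand), which loads monoamines into vesicles, had 3.6, 3.25, 2.25 and 1.57 CPM in PHF8 libraries, 0.346, 0.329, 0.358 and 0.427 CPM in F279S libraries and 0.20, 0.309, 0.379 and 0.192 CPM in wt libraries. The PHF8 libraries of SLC18A1 were spread widely, and its ratio of 7.30 was the third highest of the set. KCNMB4 (chr12:70366276-70434292, plus strand), a beta subunit of calcium-activated potassium channels, averaged 3.21 ± 0.818 CPM in PHF8, 0.643 ± 0.362 CPM in F279S and 0.515 ± 0.519 CPM in wt. SLITRK2 (chrX:145817832-145825842, plus strand), a synaptic adhesion protein, averaged 4.43 ± 0.947 CPM in PHF8, 1.16 ± 0.285 CPM in F279S and 1.01 ± 0.192 CPM in wt.

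Guidance cues and receptors of axons are given next. The secreted ligands were SLIT2, which binds ROBO receptors, and SEMA3D, a semaphorin. SEMA3D (chr7:84995553-85186855, minus strand) averaged 3.02 ± 0.35 CPM in PHF8, 0.721 ± 0.282 CPM in F279S and 0.721 ± 0.228 CPM in wt. SLIT2 (chr4:20253260-20620561, plus strand) averaged 2.63 ± 0.41 CPM in PHF8, 0.77 ± 0.148 CPM in F279S and 0.753 ± 0.27 CPM in wt. SEMA6D is a membrane-bound semaphorin with 2.98 CPM in PHF8, 0.882 CPM in F279S and 0.899 CPM in wt. Among the receptors, EPHA7 (chr6:93240020-93419547, minus strand), which binds ephrins, had 2.94, 2.67, 2.44 and 2.3 CPM in PHF8 libraries, 0.389, 0.548, 0.458 and 0.641 CPM in F279S libraries and 0.35, 0.258, 0.663 and 0.722 CPM in wt libraries. These 4 genes were 8.51% of the set. A 45-gene axon guidance list held 25 rows under 1.5 CPM in F279S and wt, and 23 of them were among the 2445 such rows with a wt mean at or above the lowest gene of the set, or 0.941%. A 56-gene list of neuronal and synaptic genes held 38 rows under 1.5 CPM in F279S and wt, of which SNAP25 and the adhesion molecule NRCAM belonged to the set. They were 4.26% of the set, and the list made up 1.02% of the 2445 rows. Both lists were chosen with earlier results of these data known. The 2445 rows were not matched to the set in level or span, and enrichment was not tested.

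Some genes encode adhesion molecules, grouped here by known role and not from a list. A class of cadherin and adhesion receptor genes, taken by name prefix, had 75 rows under 1.5 CPM in F279S and wt and held 0 of the 47. CXADR, the receptor used by coxsackieviruses and adenoviruses, averaged 3.62 ± 0.819 CPM in PHF8, 0.923 ± 0.112 CPM in F279S and 0.947 ± 0.135 CPM in wt. The junction protein CLMP averaged 3.7 ± 0.344 CPM in PHF8, 0.645 ± 0.304 CPM in F279S and 0.845 ± 0.557 CPM in wt. PRTG, an immunoglobulin-type protein of the embryo, and NRCAM averaged 2.75 and 2.03 CPM in the PHF8 line. EDIL3, a secreted ligand of integrins, averaged 2.11 ± 0.449 CPM in PHF8, 0.583 ± 0.296 CPM in F279S and 0.515 ± 0.301 CPM in wt.

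Some genes are known from lymphocytes, again grouped by known role and not from a list. SLAMF6 (chr1:160485030-160523262, minus strand), a surface receptor of the SLAM family, had 5.88, 4.89, 5.56 and 6.03 CPM in PHF8 libraries, 1.17, 0.822, 1.77 and 2.1 CPM in F279S libraries and 0.951, 0.721, 2.15 and 1.92 CPM in wt libraries. PYHIN1 (chr1:158930796-158977054, plus strand), an interferon-inducible nuclear protein of the HIN-200 family, had 6.79, 6.37, 3.97 and 3.98 CPM in PHF8 libraries, 0.649, 0.548, 1.09 and 0.776 CPM in F279S libraries and 0.851, 0.721, 1.04 and 0.77 CPM in wt libraries. IL2RB (chr22:37125838-37175054, minus strand), the beta chain of the interleukin-2 receptor, had 2.38, 2.67, 3.74 and 3.54 CPM in PHF8 libraries, 1.04, 0.603, 0.935 and 0.912 CPM in F279S libraries and 1.0, 0.876, 0.686 and 0.722 CPM in wt libraries. PYHIN1 was highest in PHF8 libraries 1 and 2 and IL2RB in libraries 3 and 4, and both stayed above every F279S and wt library. TOX (chr8:58805418-59119208, minus strand), a nuclear protein of T cell development, averaged 2.35 ± 0.327 CPM in PHF8, 0.515 ± 0.155 CPM in F279S and 0.52 ± 0.311 CPM in wt. A list of 55 interferon-stimulated genes held no gene of the set.

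Signalling components included SMAD9 (chr13:36844831-36920765, minus strand), which transmits bone morphogenetic protein signals. It had 2.89, 3.33, 5.92 and 5.98 CPM in PHF8 libraries, 0.779, 0.768, 1.47 and 1.51 CPM in F279S libraries and 1.85, 1.39, 1.42 and 0.866 CPM in wt libraries, so PHF8 libraries 3 and 4 stood apart from 1 and 2. PTPN13 (chr4:86594315-86815171, plus strand), a cytoplasmic tyrosine phosphatase, had 2.94, 3.21, 2.11 and 1.8 CPM in PHF8 libraries, 0.13, 0.384, 0.418 and 0.408 CPM in F279S libraries and 0.15, 0.361, 0.45 and 0.433 CPM in wt libraries. NPR3, the clearance receptor of natriuretic peptides, averaged 2.55 ± 0.855 CPM in PHF8, 0.763 ± 0.115 CPM in F279S and 0.783 ± 0.10 CPM in wt. MRAP2, an accessory protein of melanocortin receptors, averaged 2.85 CPM in PHF8, 0.70 CPM in F279S and 0.72 CPM in wt. The adaptor DOK6 overlaps CD226, and its 2.84 CPM in PHF8, 0.572 CPM in F279S and 0.579 CPM in wt are uncertain.

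Genes of the cell surface matrix comprised the heparan sulfate sulfotransferases HS6ST2 and HS6ST3, the membrane-type matrix metalloproteinase MMP16 and FJX1, a homologue of a Drosophila Golgi kinase. FJX1 (chr11:35618419-35620868, plus strand) had the highest ratio of the set, 9.98, with 1.57, 1.97, 2.74 and 3.03 CPM in PHF8 libraries, 0.303, 0.219, 0.159 and 0.252 CPM in F279S libraries and 0.20, 0.206, 0.284 and 0.192 CPM in wt libraries. MMP16 (chr8:88032009-88328025, minus strand) was among the steadiest, with 3.9, 3.91, 3.78 and 3.68 CPM in PHF8 libraries, 0.519, 0.439, 1.33 and 0.582 CPM in F279S libraries and 0.401, 0.67, 0.876 and 0.385 CPM in wt libraries. HS6ST3 (chr13:96090839-96839562, plus strand) was the least steady, with 1.17, 1.69, 3.4 and 3.34 CPM in PHF8 libraries, 0.303, 0.274, 0.955 and 0.776 CPM in F279S libraries and 0.15, 0.361, 1.16 and 1.11 CPM in wt libraries. Its coefficient of variation in PHF8 libraries was 47.6%, against a median of 15.3% over the 47 genes and 2.24% for PARM1, the lowest. HS6ST2 averaged 3.37 ± 0.64 CPM in PHF8, 0.913 ± 0.511 CPM in F279S and 0.843 ± 0.464 CPM in wt.

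Nuclear proteins are given here together with NAA11, MAGED1 and TRO, which are not grouped by location. SMARCA1 (chrX:129446501-129523500, minus strand), an ATPase of ISWI chromatin remodellers, had 2.43, 2.92, 2.19 and 2.47 CPM in PHF8 libraries against the F279S and wt values given above. Its ratio of 7.80 was exceeded within the set by that of FJX1 alone. NAA11 (chr4:79225694-79326050, minus strand), the catalytic subunit of an N-terminal acetyltransferase, had 5.27, 5.18, 6.68 and 6.31 CPM in PHF8 libraries, 1.25, 0.768, 2.07 and 1.55 CPM in F279S libraries and 1.4, 1.03, 1.77 and 1.2 CPM in wt libraries. RORB, an orphan nuclear receptor, averaged 2.55 ± 0.341 CPM in PHF8, 0.843 ± 0.275 CPM in F279S and 0.769 ± 0.314 CPM in wt. MAGED1 and TRO, members of the MAGE-D family on the X chromosome, averaged 3.05 ± 1.15 and 3.76 ± 0.608 CPM in the PHF8 line. A list of 37 cancer-testis and germline genes, 32 of them under 1.5 CPM in F279S and wt, held none of the 47.

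The remaining genes have cytoskeletal, trafficking, membrane or little-known roles. TXLNB (chr6:139240061-139292139, minus strand), of the taxilin family, had 5.62, 5.8, 4.69 and 4.46 CPM in PHF8 libraries, 1.64, 1.1, 1.39 and 1.3 CPM in F279S libraries and 0.751, 1.29, 1.16 and 0.818 CPM in wt libraries. The tetraspanin TSPAN6 averaged 4.3 ± 0.598 CPM in PHF8, 0.982 ± 0.182 CPM in F279S and 0.649 ± 0.137 CPM in wt, and the endocytic adaptor STON2 4.28 ± 1.2 CPM in PHF8, 1.08 ± 0.264 CPM in F279S and 0.962 ± 0.115 CPM in wt. CSRP2, a LIM-domain protein of the actin cytoskeleton, averaged 3.02 ± 0.462 CPM in PHF8, 0.524 ± 0.293 CPM in F279S and 0.524 ± 0.27 CPM in wt. CFAP47 of motile cilia, the microtubule-severing protein FIGN, the RNA-binding protein RBPMS2, and LONRF2, CCDC62, CCDC85A and PARM1 averaged 2.64 to 4.15 CPM in the PHF8 line. TPD52L1, which overlaps HDDC2, and RUNDC3B, which overlaps ABCB1, averaged 4.76 and 3.55 CPM in the PHF8 line and are uncertain for that reason.

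Levels can be compared between genes only per length of exon. On that scale NAA11 was highest in the PHF8 line at 2.17 CPM per exon kilobase, followed by SLAMF6 at 2.04, SNAP25 at 1.62 and PYHIN1 at 1.52, while ELOVL6 was at 1.09. The median of the 47 was 0.560 and the lowest value was 0.188, for PRTG. Whether these values count reads in introns too is not stated.

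At the edge of the selection, CCDC62 (ratio 3.02), RORB (3.03) and CFAP47 (3.20) were just inside. CLIC6 (2.98), COL4A4 (2.96) and NRG3 (2.91) were just outside. CLIC6 averaged 3.28 ± 0.267 CPM in PHF8, 1.10 CPM in F279S and 0.868 CPM in wt, much like the genes inside, so the boundary of the set marks no break in the data. With a ratio of 2 in place of 3 the same rule gave 90 genes, and with a ratio of 4 it gave 24.

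Several genes differed between PHF8 libraries 1 and 2 and PHF8 libraries 3 and 4, which the labels do not call batches. The mean of libraries 3 and 4 over that of 1 and 2 ran from 0.526 for MAGED1 to 2.36 for HS6ST3 (median 1.08). In the F279S and wt lines the same ratio had medians of 1.39 and 1.29. A part of the libraries can be read without the part used to choose, though both parts come from the same lines. Applied to libraries 1 and 2 of each line alone, the thresholds picked 73 genes, of which 72 had both PHF8 libraries 3 and 4 above all F279S and wt libraries 3 and 4. Among all 6734 rows under 1.5 CPM in F279S and wt that were not left out by name, 11.6% did so. The ratio read in libraries 3 and 4 had a median of 2.88, with 31 of the 73 at 3 or more. Applied to libraries 3 and 4 alone, the thresholds picked 34 genes, and all 34 had both PHF8 libraries 1 and 2 above every F279S and wt library 1 and 2, against 15.6% of those 6734 rows. The ratio read in libraries 1 and 2 had a median of 4.30, with 27 of the 34 at 3 or more. Both selections shared 23 genes. A difference between the lines themselves recurs in either part, so this is no reading in separate lines. Of the 6759 rows under 1.5 CPM in F279S and wt, 1028 had no read in any library of the first experiment. The shares over such rows are therefore not matched to the picked genes in level.

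The 47 genes lay on 18 chromosomes, 23 on the plus strand and 24 on the minus strand. The X chromosome held 7 (SLITRK2, TSPAN6, CFAP47, TRO, HS6ST2, MAGED1 and SMARCA1), or 14.9% of the set. It held 4.05% of the 2445 rows under 1.5 CPM in F279S and wt whose wt mean was at least that of the lowest gene of the set. Chromosome 4 held 5 genes, chromosomes 6 and 8 held 4 each and chromosome 19 held 0, where 6.67% of those 2445 rows lie. The genes were scattered: the closest neighbours within the set were TOX and CA8, 1.07 Mb apart, and PYHIN1 and SLAMF6, 1.51 Mb apart.

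The genes were long. Their spans had a median of 103 kb, from 2.45 kb for FJX1 to 749 kb for HS6ST3, and 25 of 47 (53.2%) exceeded 100 kb. Of the 2445 rows under 1.5 CPM in F279S and wt described above, 33.0% exceeded 100 kb and the median span was 44.4 kb. A long span collects more reads at the same transcript level when introns are counted, and the part of span in these levels was not tested.

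Genes beside the set were read in the same fit of the first experiment. The nearest tested gene on each side within 500 kb, not overlapping the gene of the set, gave 65 neighbours. This list was chosen by position after the values of the set were known. Some of the neighbours overlap other rows, and their values are uncertain for that reason. In PHF8 against wt, 12 of the 65 rose (18.5%) and 5 fell (7.69%), where 12.7% of all 13683 tested rows were called higher and 8.28% lower (limma, Benjamini-Hochberg adjusted p under 0.05). In PHF8 against F279S, 16 rose (24.6%) and 7 fell (10.8%), where 12.2% of all rows were called higher and 7.92% lower. With the replicate number as a block, 20 rose and 9 fell in PHF8 against wt (30.8% and 13.8%), where 22.4% of all rows were called higher and 19% lower in that fit. In PHF8 against F279S 22 rose and 12 fell with the block (33.8% and 18.5%), where 23.2% of all rows were called higher and 17.8% lower. The median log2 difference of the neighbours was 0.08 in both comparisons, against 0.01 over all rows in PHF8 against wt and 0.02 in PHF8 against F279S.

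The neighbours named here were chosen after their values were seen. The largest called rise among the neighbours was that of VCAN, the proteoglycan versican, 358 kb from EDIL3. It had 258, 245, 957 and 843 CPM in PHF8 libraries, 41.9, 33.6, 173 and 149 CPM in F279S libraries and 53.4, 53.3, 158 and 147 CPM in wt libraries, with libraries 3 and 4 above 1 and 2 in every line. It rose in PHF8 against wt by 2.39 ± 0.65 (SE; adjusted p = 0.0216) on the log2 scale of CPM + 0.5, and this call was lost without PHF8 library 3, PHF8 library 4, wt library 1 or wt library 2 (adjusted p up to 0.0681), whereas with the replicate block its adjusted p was 2.59e-07. IFI16, an interferon-inducible DNA sensor 22.9 kb from PYHIN1, rose in PHF8 against wt by 1.39 ± 0.10 (SE; adjusted p = 3.14e-06). On the other side of PYHIN1, MNDA, a myeloid protein of the same HIN-200 family, was lower in the PHF8 line. It had 86, 85.5, 59.1 and 66.5 CPM in PHF8 libraries, 166, 166, 91.1 and 96.9 CPM in F279S libraries and 147, 147, 94.8 and 98.1 CPM in wt libraries. Its log2 difference was -0.76 ± 0.23 (SE; adjusted p = 0.0382) against F279S, which did not pass without F279S library 1 or 2 or any 1 PHF8 library (adjusted p up to 0.108), and -0.69 ± 0.23 (SE; adjusted p = 0.0549) against wt. With the replicate block MNDA passed in both, with adjusted p of 1.85e-05 against F279S and 2.82e-05 against wt. HIP1R, 6.93 kb from CCDC62, rose in PHF8 against wt by 1.35 ± 0.12 (SE; adjusted p = 1.41e-05), and PYGO1, 22.6 kb from PRTG, rose by 1.11 ± 0.09 (SE; adjusted p = 5.27e-06). LAMB1, a laminin chain 144 kb from NRCAM, rose by 0.92, SYTL4, beside TSPAN6, by 0.86, GPC4, a glypican beside HS6ST2, by 0.84, and MAGED2, a relative of TRO 104 kb from it, by 0.67. LAMB1 overlaps DLD, so its value is uncertain. NSMAF, beside TOX, had the largest called fall against wt, with a log2 difference of -0.66. Reads past the end of a gene cannot be separated from its neighbour's own reads in these tables, and their part was not tested.

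Promoters are shown for the gene with the highest CPM over its span, ELOVL6, the gene with the highest ratio, FJX1, the gene without overlap and with a promoter entry that differed most between ER lines, SMAD9, and the gene of highest CPM among those with few CG pairs, SLAMF6. Each sequence covers 250 bases before to 50 bases after the RefSeq gene start (GRCh38.p14), 5′ to 3′ on the gene's strand, with every CG dinucleotide in capitals. The windows are chr4:110198566-110198865, minus strand, chr11:35618210-35618509, plus strand, chr13:36920189-36920488, minus strand and chr1:160523206-160523505, minus strand.
ELOVL6: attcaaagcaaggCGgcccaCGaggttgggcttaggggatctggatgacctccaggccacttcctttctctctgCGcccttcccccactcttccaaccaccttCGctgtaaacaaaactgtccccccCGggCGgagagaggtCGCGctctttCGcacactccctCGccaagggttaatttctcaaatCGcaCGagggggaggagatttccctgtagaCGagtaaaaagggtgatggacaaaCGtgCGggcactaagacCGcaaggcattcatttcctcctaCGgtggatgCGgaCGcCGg
FJX1: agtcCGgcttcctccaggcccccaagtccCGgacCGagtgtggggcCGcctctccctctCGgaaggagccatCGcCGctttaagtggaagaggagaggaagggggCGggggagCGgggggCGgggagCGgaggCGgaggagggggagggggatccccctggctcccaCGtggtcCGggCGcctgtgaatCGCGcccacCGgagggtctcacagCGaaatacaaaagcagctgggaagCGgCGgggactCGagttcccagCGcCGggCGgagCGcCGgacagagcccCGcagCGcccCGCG
SMAD9: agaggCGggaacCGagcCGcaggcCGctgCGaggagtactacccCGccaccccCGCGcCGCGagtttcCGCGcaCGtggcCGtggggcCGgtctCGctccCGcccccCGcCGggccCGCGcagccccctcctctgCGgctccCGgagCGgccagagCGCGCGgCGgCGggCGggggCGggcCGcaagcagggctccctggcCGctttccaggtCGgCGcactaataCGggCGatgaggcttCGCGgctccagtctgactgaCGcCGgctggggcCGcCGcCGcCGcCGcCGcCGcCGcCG
SLAMF6: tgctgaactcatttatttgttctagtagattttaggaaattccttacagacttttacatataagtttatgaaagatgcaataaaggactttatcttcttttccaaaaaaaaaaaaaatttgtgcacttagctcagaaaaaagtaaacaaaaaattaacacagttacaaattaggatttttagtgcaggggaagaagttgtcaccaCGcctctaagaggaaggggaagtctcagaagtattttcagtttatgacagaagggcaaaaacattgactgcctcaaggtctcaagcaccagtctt

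ELOVL6 held 20 CG pairs, FJX1 31, SMAD9 50 and SLAMF6 1. Promoter entries matched 36 of the 47 genes. The rest, among them CA8, CLMP, CXADR, DOK6, IL2RB, KCNMB4, MMP16, SLC18A1, SNAP25 and TOX, had no matching entry. The RefSeq start lay within 1000 bases of the deposited gene start for 32 of the 36. It lay farther off for SLIT2 (1355 bases), NPR3 (1802), TSPAN6 (2887) and TPD52L1 (35197), so their windows do not cover the deposited start. Some windows within 1000 bases miss it too, as for PYHIN1 (756 bases), ELOVL6 (584) and SMAD9 (527). Median GC content was 65.5% in the 36 promoters, 60.7% in 1612 promoters of other rows under 1.5 CPM with a wt level at or above the lowest gene of the set, and 63% in all 14418 matched promoters. GC above 55% with an observed over expected CG ratio above 0.65 was met by 18 of 36 (50%), 42.1% of the 1612 and 58.2% of all. The RefSeq windows of the set were therefore mixed, with CG-rich ones such as SMAD9, RBPMS2 and NRCAM beside CG-poor ones such as SLAMF6, PYHIN1 and HS6ST2.

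Motifs were searched on both strands. The TATA box TATAAA, the interferon-stimulated response element GAAANNGAAA and the cyclic AMP response element TGACGTCA matched none of the 36 promoters. They were in 11.7%, 3.85% and 1.74% of the 1612 promoters of other rows under 1.5 CPM, and in 9.33%, 3.25% and 2.59% of all 14418. The E-box CACGTG matched 5 of 36 (13.9%), in FJX1, SEMA6D, SMAD9, TSPAN6 and TXLNB, against 6.33% of the 1612 and 8.94% of all. The ETS core CCGGAAG matched MAGED1 and TRO (5.56%), close to the 5.09% of the 1612, while 14.3% of all held it. The E2F site TTTCCCGC matched STON2 (2.78%), against 1.3% of the 1612 and 2.16% of all. A match is a run of letters and was not tied to binding.

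The ER lines were not used in the selection and give a reading in other libraries. No wt library accompanied them, so levels set beside wt are described and not tested. Summed over the 47 genes, the ERDD libraries held 182 and 180.3 CPM, the ERPHF8 libraries 155 and 169 CPM and the ERAA libraries 144 and 127 CPM, against 29.3 to 42.5 CPM in wt libraries. All 3 ER lines thus lay near the PHF8 line and far from wt, ERAA included. Every one of the 47 genes had a higher mean in each ER line than in wt. In 39 of them all 6 ER libraries were above all 4 wt libraries, a pattern held by 13.3% of 2398 other rows under 1.5 CPM in F279S and wt with a wt mean at or above the lowest of the set. Those rows were not matched to the set in wt level beyond that floor. For the count of higher means no share over other rows is given, and the selection had capped the wt means.

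**Figure D2:**
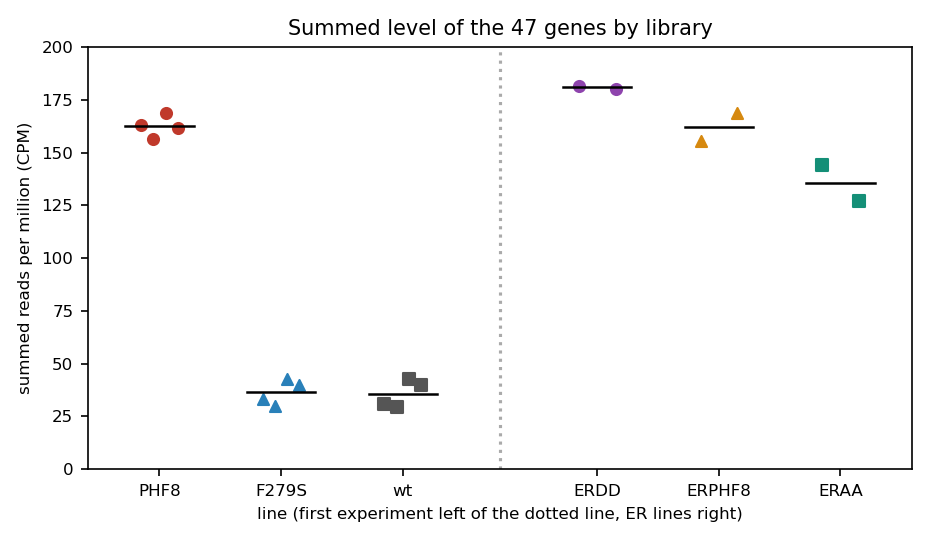
Summed CPM of the 47 genes in each library (points) with the mean of the line (bar), n = 4 for PHF8, F279S and wt and n = 2 for ERDD, ERPHF8 and ERAA. PHF8 and all 3 ER lines sit above 125 CPM, and F279S and wt sit under 45 CPM.

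A mean of 2 CPM or more was reached by 35 genes in ERDD (74.5%), 33 in ERPHF8 (70.2%) and 25 in ERAA (53.2%). Of the 2398 other rows, 7.59%, 7.34% and 7.51% did so in these lines in the same order. These rows had only to reach the lowest wt mean of the set, 0.151 CPM, whereas the median wt mean of the set was 0.721 CPM. Starting levels were therefore not matched, and their part in this contrast was not tested. That level was reached in all 3 lines by 22 genes and in none by 6. Means were above that of the PHF8 line for 25 genes in ERDD, 17 in ERPHF8 and 13 in ERAA. The line with the highest mean was ERDD for 24 genes, ERPHF8 for 13 and ERAA for 10, and the lowest was ERAA for 28. No share over other rows is given for these counts or for those above the PHF8 line, so they are not read as a trait of the set.

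NAA11 reached the highest CPM of any gene of the set, with 13.3 and 12 CPM in ERDD libraries, 13.4 and 16.1 CPM in ERPHF8 libraries and 9.17 and 8.36 CPM in ERAA libraries. STON2 had 7.33 and 7.03 CPM in ERDD libraries, 8.42 and 8.16 CPM in ERPHF8 libraries and 6.07 and 4.56 CPM in ERAA libraries. SNAP25, one of the highest in the PHF8 line, was weak in all of these lines, with 1.78 and 1.7 CPM in ERDD libraries, 2.07 and 2.33 CPM in ERPHF8 libraries and 1.97 and 1.56 CPM in ERAA libraries. LONRF2 was likewise low, with 1.19 and 1.87 CPM in ERDD libraries, 1.77 and 1.81 CPM in ERPHF8 libraries and 1.67 and 1.34 CPM in ERAA libraries.

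**Figure D3:**
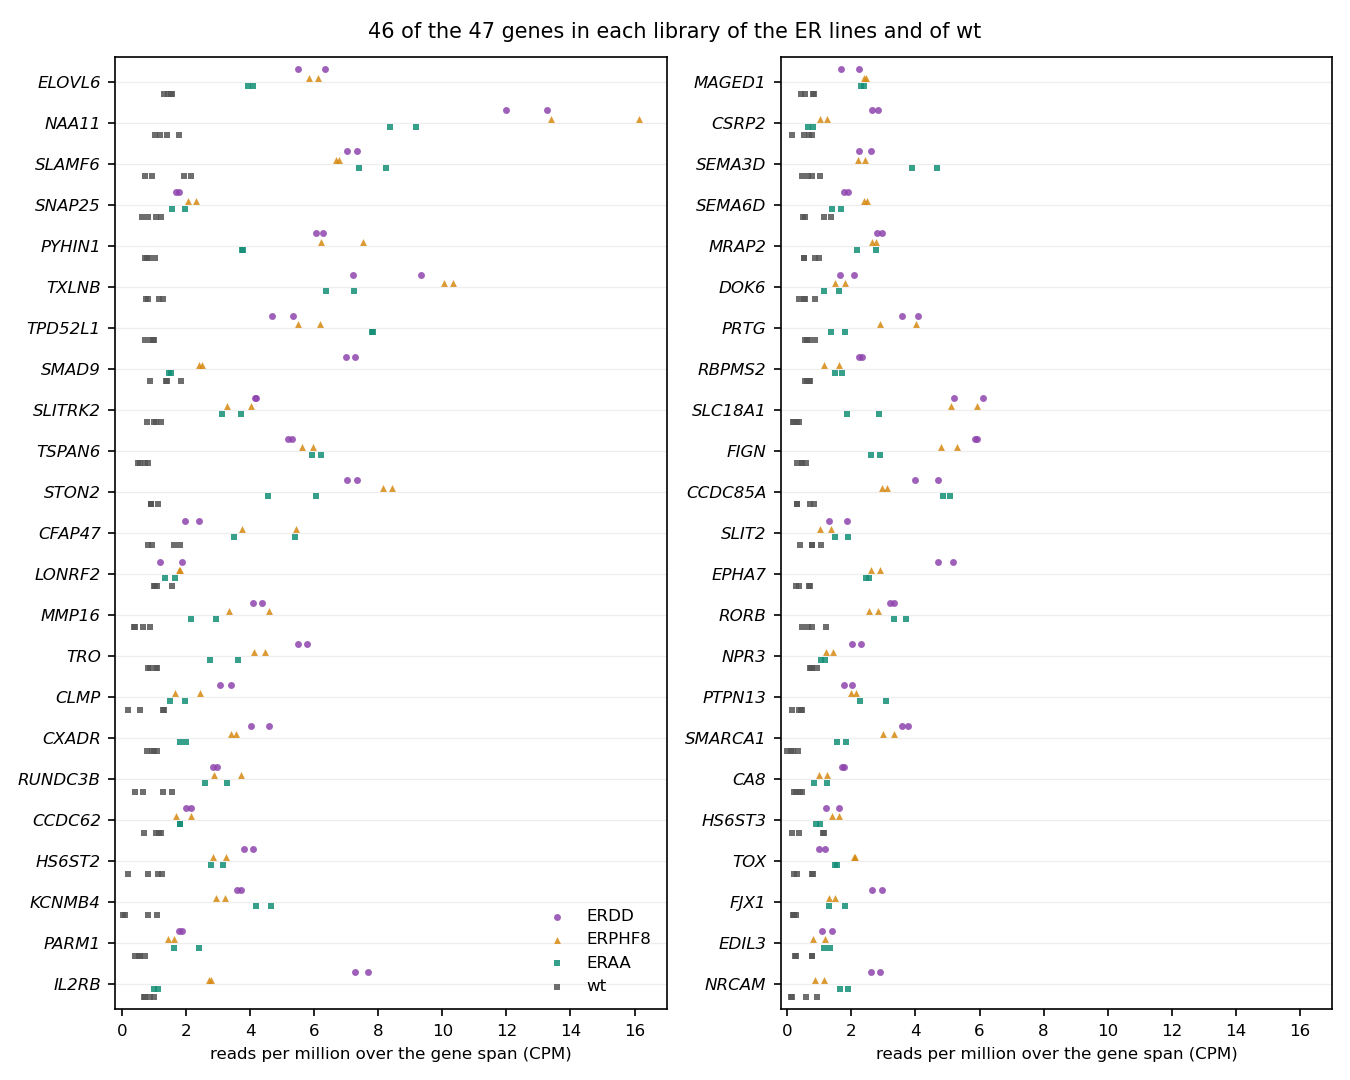
CPM of 46 of the 47 genes (rows, ordered by the PHF8 mean of the first experiment) in every library of ERDD (purple circles), ERPHF8 (orange triangles) and ERAA (green squares), n = 2 each, beside wt (grey squares, n = 4). ER points lie mostly right of the wt points; IL2RB and SMAD9 stand out in ERDD, with means of 7.47 and 7.13 CPM.

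Between ER lines the design allows a test, and all 47 genes passed its filter of 1 CPM in at least 2 of the 6 libraries. In ERDD against ERAA, 23 genes rose and 5 fell, which is 48.9% and 10.6% of the set, where 34.8% of all 13831 tested rows were called higher and 33.3% lower (limma on log2(CPM + 0.5), Benjamini-Hochberg adjusted p under 0.05). The median log2 difference was 0.36 over the 47 genes and -0.00 over all rows. Among 808 other tested rows that were under 1.5 CPM in F279S and wt, 28% rose and 31.3% fell. Monocytic markers summed to 2981 to 3049 CPM in ERDD libraries, 3593 to 3635 CPM in ERPHF8 libraries and 4462 to 4927 CPM in ERAA libraries, so ERDD was lowest where the summed level of the set was highest. The 55 interferon-stimulated genes summed to 8663 to 8674 CPM in ERDD libraries, 3302 to 3317 CPM in ERPHF8 libraries and 1691 to 1736 CPM in ERAA libraries. The part of either list in the differences of the 47 genes was not tested. The 3 ER comparisons share libraries, so their values are given side by side and not counted as separate evidence.

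IL2RB differed most. It had 7.26 and 7.68 CPM in ERDD libraries, 2.78 and 2.72 CPM in ERPHF8 libraries and 1.13 and 0.999 CPM in ERAA libraries, with no overlap between lines. Its log2 difference was 2.35 ± 0.10 (SE; adjusted p = 9.65e-07) in ERDD against ERAA, 1.06 ± 0.10 (SE; adjusted p = 1.37e-04) in ERPHF8 against ERAA and 1.29 ± 0.10 (SE; adjusted p = 6.92e-05) in ERDD against ERPHF8. SMAD9 had 7.29 and 6.98 CPM in ERDD libraries, 2.51 and 2.4 CPM in ERPHF8 libraries and 1.52 and 1.46 CPM in ERAA libraries, also in separate ranges. Its log2 difference was 1.94 ± 0.10 (SE; adjusted p = 1.92e-06) in ERDD against ERAA and 1.37 ± 0.10 (SE; adjusted p = 4.09e-05) in ERDD against ERPHF8.

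CSRP2 had 2.83 and 2.64 CPM in ERDD libraries, 1.01 and 1.25 CPM in ERPHF8 libraries and 0.811 and 0.634 CPM in ERAA libraries, and rose in ERDD against ERAA by 1.41 ± 0.14 (SE; adjusted p = 5.97e-05). SLC18A1 had 6.12 and 5.21 CPM in ERDD libraries, 5.09 and 5.91 CPM in ERPHF8 libraries and 2.88 and 1.85 CPM in ERAA libraries. It rose against ERAA in both other lines, by 1.13 ± 0.17 (SE; adjusted p = 5.94e-04) in ERDD and 1.09 ± 0.17 (SE; adjusted p = 0.00129) in ERPHF8. PRTG rose in ERDD against ERAA by 1.06 ± 0.17 (SE; adjusted p = 6.79e-04), CXADR by 0.99 ± 0.11 (SE; adjusted p = 9.97e-05), FIGN by 0.98 ± 0.10 (SE; adjusted p = 5.94e-05) and SMARCA1 by 0.94 ± 0.12 (SE; adjusted p = 1.74e-04).

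Of the guidance genes, EPHA7 rose in ERDD against ERAA while SEMA3D fell. EPHA7 had 4.7 and 5.19 CPM in ERDD libraries, 2.88 and 2.62 CPM in ERPHF8 libraries and 2.46 and 2.53 CPM in ERAA libraries, a log2 difference of 0.86 ± 0.10 (SE; adjusted p = 1.62e-04) in ERDD against ERAA. SEMA3D had 2.61 and 2.23 CPM in ERDD libraries, 2.21 and 2.43 CPM in ERPHF8 libraries and 4.67 and 3.9 CPM in ERAA libraries, a log2 difference of -0.71 ± 0.13 (SE; adjusted p = 0.00129) in ERDD against ERAA and -0.76 ± 0.13 (SE; adjusted p = 0.00159) in ERPHF8 against ERAA. CFAP47, with 2.41 and 1.96 CPM in ERDD libraries, 3.74 and 5.44 CPM in ERPHF8 libraries and 5.41 and 3.51 CPM in ERAA libraries, fell in ERDD against ERAA with a log2 difference of -0.86 ± 0.22 (SE; adjusted p = 0.00765). Without ERDD library 2 its adjusted p was 0.060. TPD52L1, which overlaps HDDC2, fell too, with a log2 difference of -0.60. PTPN13 and TOX fell with log2 differences of -0.40 and -0.34, and both calls were lost without ERAA library 1, without either ERDD library or without either ERPHF8 library, and that of TOX also without ERAA library 2.

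In ERPHF8 against ERAA, 18 genes rose and 6 fell (38.3% and 12.8%), where 29.7% of all rows were called higher and 24.1% lower. Besides SLC18A1 and IL2RB, the largest rises were those of PRTG (0.92 ± 0.17 (SE; adjusted p = 0.00248)), PYHIN1 (0.78 ± 0.11 (SE; adjusted p = 5.84e-04)), FIGN (0.77 ± 0.10 (SE; adjusted p = 4.59e-04)) and SMARCA1 (0.74 ± 0.12 (SE; adjusted p = 0.00115)). CXADR rose by 0.72 and NAA11 by 0.72. PYHIN1 had 6.26 and 6.06 CPM in ERDD libraries, 6.2 and 7.53 CPM in ERPHF8 libraries and 3.76 and 3.78 CPM in ERAA libraries. Besides SEMA3D, the genes that fell were CCDC85A (-0.63 ± 0.11 (SE; adjusted p = 0.00168)), NRCAM (-0.60 ± 0.14 (SE; adjusted p = 0.00792)), KCNMB4 (-0.46 ± 0.10 (SE; adjusted p = 0.00618)), the overlapping TPD52L1 (-0.40 ± 0.10 (SE; adjusted p = 0.0102)) and RORB (-0.33 ± 0.11 (SE; adjusted p = 0.034)). The call of NRCAM was lost without ERPHF8 library 2 (adjusted p = 0.0612), that of TPD52L1 without ERPHF8 library 1 (adjusted p = 0.0755), and that of RORB when any library but ERAA library 2 was left out (adjusted p up to 0.172). The median log2 difference was 0.17 over the 47 genes and 0.04 over all rows.

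In ERDD against ERPHF8, 14 genes rose and 3 fell (29.8% and 6.38%), where 24.8% of all rows were called higher and 28% lower. The median log2 difference was 0.14 over the 47 genes and -0.02 over all rows. NRCAM had 2.61 and 2.91 CPM in ERDD libraries, 1.13 and 0.858 CPM in ERPHF8 libraries and 1.89 and 1.63 CPM in ERAA libraries, and rose in ERDD against ERPHF8 by 1.13 ± 0.14 (SE; adjusted p = 5.08e-04). FJX1 had 2.95 and 2.64 CPM in ERDD libraries, 1.5 and 1.3 CPM in ERPHF8 libraries and 1.79 and 1.29 CPM in ERAA libraries, and rose in ERDD against ERPHF8 by 0.79 ± 0.15 (SE; adjusted p = 0.0033). CSRP2 rose by 0.99, EPHA7 by 0.74, RBPMS2 by 0.57 and CLMP by 0.56. CFAP47, TOX and SEMA6D fell, with log2 differences of -0.91, -0.71 and -0.33. The call of CFAP47 was lost without ERDD library 2 (adjusted p = 0.0722) and without ERPHF8 library 2 (adjusted p = 0.0675), and those of CLMP and RBPMS2 without either ERDD library or without ERPHF8 library 1 (adjusted p up to 0.162). SEMA6D did not pass when any ERDD or ERPHF8 library was left out. The number called moved with each of these 4 libraries: it was 10 without ERDD library 1, 10 without ERDD library 2, 11 without ERPHF8 library 1 and 11 without ERPHF8 library 2, against 17 with all.

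**Figure D4:**
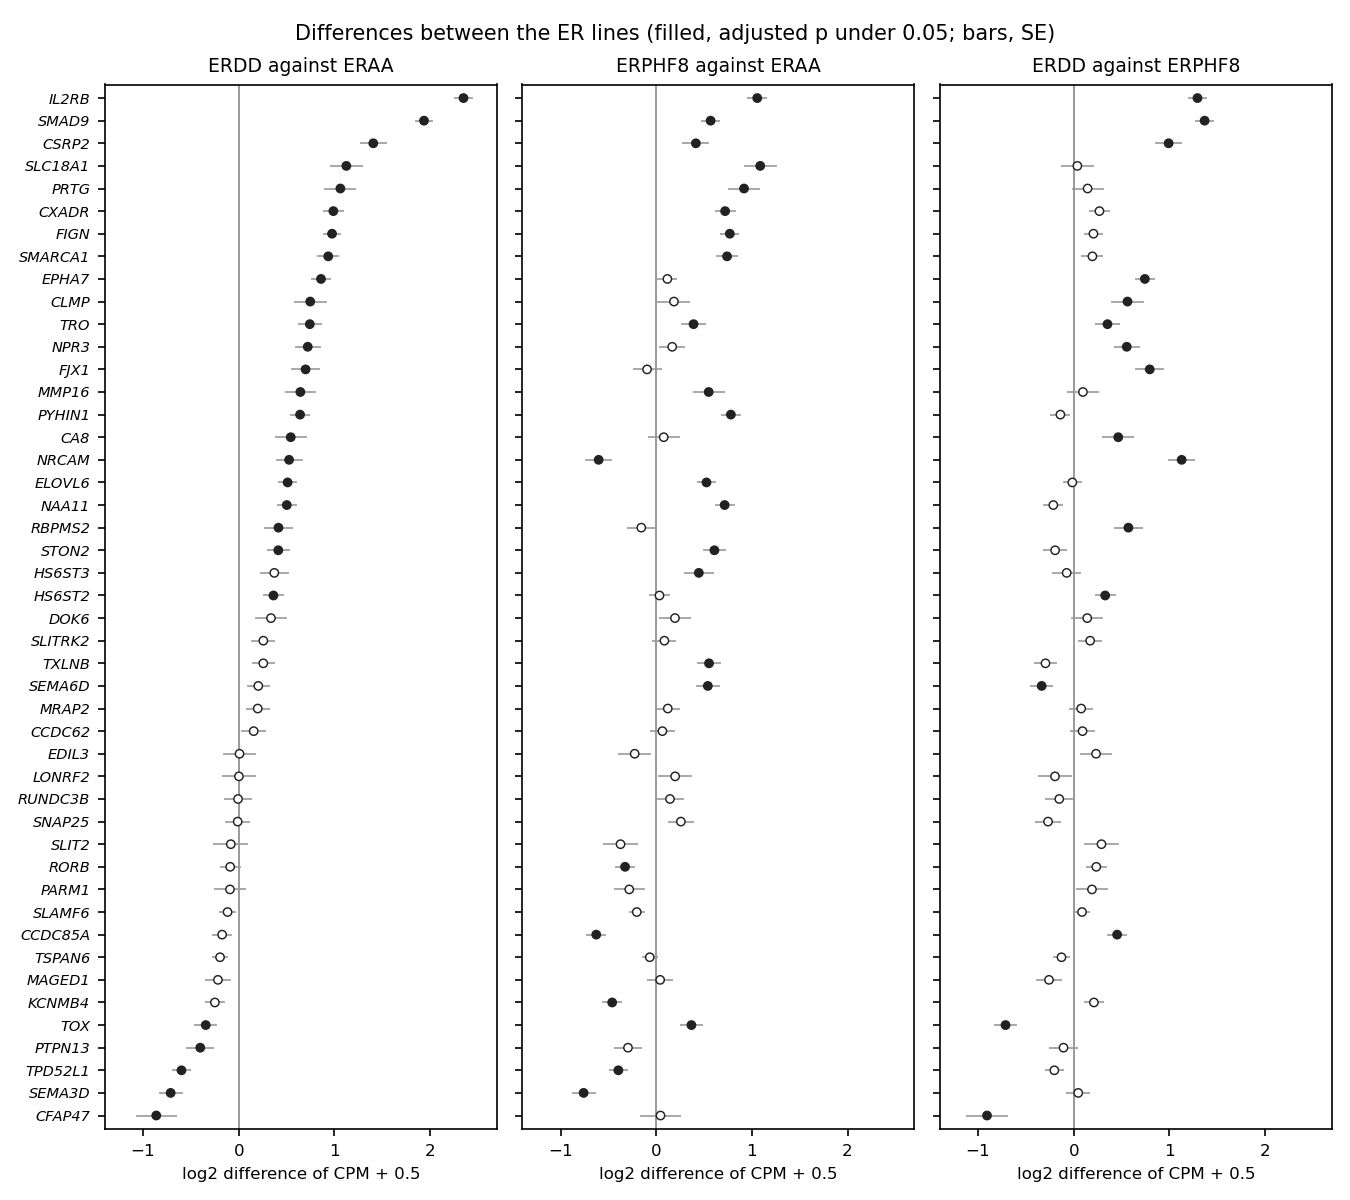
Log2 difference of CPM + 0.5 with its SE for 46 of the 47 genes (rows, ordered by the first panel) in the 3 comparisons of ER lines, n = 2 per line. Filled points passed an adjusted p of 0.05, 27 in ERDD against ERAA, 24 in ERPHF8 against ERAA and 16 in ERDD against ERPHF8.

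Other enzymes and readers of H3K9 and H4K20 methylation were examined in the first experiment as a list of 31 genes, of which 28 were tested. In PHF8 against wt, 3 rose and 3 fell (10.7% each), near the 12.7% of all rows called higher and the 8.28% called lower, and the median log2 difference of the list was -0.01. KDM7A, a demethylase of the PHF8 family, averaged 4.77 ± 0.758 CPM in PHF8, 2.22 ± 0.505 CPM in F279S and 2.51 ± 0.60 CPM in wt, a log2 difference of 0.82 ± 0.18 (SE; adjusted p = 0.00738) against wt and 0.97 ± 0.18 (SE; adjusted p = 0.00302) against F279S. PHF2, another member of that family, averaged 34.1 ± 1.95 CPM in PHF8, 48.3 ± 1.36 CPM in F279S and 51.6 ± 2.27 CPM in wt, a log2 difference of -0.59 ± 0.06 (SE; adjusted p = 4.15e-05) against wt and -0.50 ± 0.06 (SE; adjusted p = 1.47e-04) against F279S. ATF7IP, a partner of the H3K9 methyltransferase SETDB1, rose by 0.52 ± 0.14 (SE; adjusted p = 0.023) against wt and 0.63 ± 0.14 (SE; adjusted p = 0.00964) against F279S. SUV39H2, an H3K9 methyltransferase, rose against wt by 0.27 ± 0.09 (SE; adjusted p = 0.0468), and KDM4A and CBX1 fell with log2 differences of -0.28 and -0.17. In PHF8 against F279S, 3 rose (10.7%), SETDB2 besides KDM7A and ATF7IP, and PHF2 fell (3.57%), where 12.2% of all rows were called higher and 7.92% lower. In PHF8 against wt the number called was 6 with all libraries, 3 without PHF8 library 1 and 3 without PHF8 library 2. With the replicate number as a block 5 rose and 5 fell in PHF8 against wt (17.9% each, against 22.4% and 19% of all rows), and 6 rose and 2 fell in PHF8 against F279S (21.4% and 7.14%, against 23.2% and 17.8% of all rows).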

How the data were processed

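Reads were aligned with STAR 2.7.0c to hg38 and handled with SAMtools 1.9, with DESeq2 also listed, per the submitters' processing notes. How reads were counted, with which strand setting and on which annotation release, is not given in the sources used here. Deposited values are RPKM, reads per kilobase of gene span and per 1000000 library reads, made by the authors for 19784 genes in each of 18 libraries. RPKM times span in kilobases gave CPM, and CPM times the library total recovered from the smallest steps gave whole reads for all values (tolerance 0.01 reads). Reads over genes summed to 100.1% to 104.6% of that total.

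The 47 genes and all gene lists were chosen with earlier results of these data known. Counts and sums cover all 47, of which 1 is not reported here by name and is not drawn gene by gene. Genes named with full statistics are those with the 10 highest PHF8 means or ratios, up to 8 called genes per direction and ER comparison, the edges of the selection, and up to 5 overlapping or 4 list genes. Tests used limma 3.58.1 in R 4.3.3 with an intensity trend on log2(CPM + 0.5), a filter of 1 CPM in at least 2 of 6 ER libraries or 4 of 12 libraries of the first experiment, and Benjamini-Hochberg adjustment over all tested rows. Group was the only term. Library effects shared by replicate number were checked by correlating deviations from the line means between same-numbered libraries. All 12 such pairs of the first experiment exceeded 0.1 (0.484 to 0.908). Pairs with different numbers were not correlated, and an effect shared by several numbers would give such values too. Pairing by number was therefore not shown. With 2 libraries per ER line the deviations mirror each other, so both numbers give the same value. The ER values were -0.00252 for ERAA with ERDD, -0.336 for ERAA with ERPHF8 and 0.104 for ERDD with ERPHF8. Alternatives were other thresholds, pseudocounts, filters and scaling, limma-voom on the recovered reads, the replicate block and leaving out libraries. The fit was tested on simulated data.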

Additional observations from a re-analysis of the deposited data

Results flagged for a closer look

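Among 144 sets of 4 libraries (the 47 genes and their sum in PHF8, F279S and wt), 10 had a highest or lowest library whose gap to the next, as a share of the range, exceeded Dixon's critical value. Chance flags about 1 in 20 such sets. In the PHF8 line, RUNDC3B was highest in library 3 (3.78 CPM, others 3.45 to 3.49), TOX was highest in library 2 (2.84 CPM, others 2.16 to 2.23), DOK6 was lowest in library 2 (2.22 CPM, others 2.97 to 3.09) and CCDC85A was lowest in library 4 (2.30 CPM, others 2.74 to 2.8). In F279S, SLITRK2 was highest in library 2 (1.59 CPM, others 1.01 to 1.04), MMP16 was highest in library 3 (1.33 CPM, others 0.439 to 0.582) and PTPN13 was lowest in library 1 (0.130 CPM, others 0.384 to 0.418). In wt, STON2 was highest in library 2 (1.13 CPM, others 0.899 to 0.914), LONRF2 was highest in library 1 (1.55 CPM, others 1.02 to 1.11) and FJX1 was highest in library 3 (0.284 CPM, others 0.193 to 0.206). The libraries with fibroblast marker reads gave 1 of the 10, SLITRK2 in F279S library 2.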

How the results depend on the processing

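The selection gave 90 genes with a ratio of at least 2, 24 with a ratio of at least 4, 73 from libraries 1 and 2 alone and 23 where the rule was met in libraries 1 and 2 and again in 3 and 4, against 47; leaving out 1 library gave 41 to 54. Genes called in ERDD against ERPHF8 numbered 10 to 20 when 1 library was left out, against 17, in ERDD against ERAA 21 to 28, against 28, and in ERPHF8 against ERAA 17 to 24, against 24. With the replicate block, which the ER libraries do not call for because same-numbered libraries there correlated between -0.336 and 0.104, these counts were 26 in ERDD against ERAA, 20 in ERPHF8 against ERAA and 13 in ERDD against ERPHF8. In the first experiment the block gave 10 and 8 genes of the methylation list, against 6 and 4, and 29 and 34 neighbours, against 17 and 23. No called log2 difference changed sign under the alternatives run. Of 69 calls in the ER lines, 11 were lost with no filter, 10 with the block, 3 with a pseudocount of 0.1, 1 with median-of-ratios scaling and 1 with limma-voom, and none with a pseudocount of 1. The cause was not tested. Depth limits these genes: a floor of 3 reads is 0.0582 to 0.164 CPM in the first experiment, and 2 libraries per ER line leave 3 residual degrees of freedom.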
